A study of Mus musculus with 40 samples.

Results

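Cd59a, Mid1, Zfp976, Entpd4, Zfp936, Gm15319, Kctd18, Marchf7 and Zfp369 are 9 of the 19505 mouse genes measured in brains that differ in 1 residue of the type 2 deiodinase. They were chosen with earlier results of these data known. In each, the mean log2 signal of the Ala arrays minus that of the Thr arrays had one sign in all 5 brain regions. Their genotype differences are thus given below as a description, with no test. The same sign in all 5 regions was found in 1195 of the 14978 genes above the filter on dim genes, which is 7.98% of them, and all 9 genes passed that filter. Within that larger group the 9 genes held places 1 to 7, 12 and 13 when genes were ordered by the size of the average difference against its error. One sign alone thus does not set them apart, and their large differences are no finding separate from the choice.

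The type 2 deiodinase, encoded by Dio2, makes the active thyroid hormone T3 from thyroxine, and in the brain it works mainly in glial cells. The mice carried alanine (Ala92D2HY) or threonine (Thr92D2HY) at position 92 of the enzyme. All were 8 to 10 weeks old, of a background strain labelled C56BL/6, and kept on chow at room temperature. Total RNA of amygdala, cerebellum, hippocampus, prefrontal cortex and striatum was measured with 4 Ala and 4 Thr arrays per region, 40 in all. The labels give neither the sex of the mice nor the animal behind an array, so the tests weigh differences against array-to-array spread alone, which may be technical. In pieces of whole tissue, fewer cells of a type and less RNA per cell cannot be told apart.

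The 9 genes have different known roles. CD59 proteins sit on the outer cell membrane and block the last step of the complement cascade, the assembly of the membrane attack complex, and mice have a pair of such genes, Cd59a and Cd59b. MID1 is a ubiquitin ligase of the TRIM family that binds microtubules, and MARCHF7 is a ubiquitin ligase of the RING type. ENTPD4 is an enzyme of the Golgi apparatus and lysosomes that cleaves nucleotides. Zfp976, Zfp936 and Zfp369 are zinc finger genes, a class that includes many repressors of transcription. KCTD18 belongs to a family with a BTB-like domain, and Gm15319 is a predicted gene for which no role is given here.

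In the annotation of the RefSeq gene table (GRCm38.p6), 5 chromosomes hold 1 of the genes each, while chromosomes 2 and 7 hold 2 each. Zfp976 spans chr7:42609514-42644267 and Zfp936 chr7:43114166-43192109, and their lower ends are 505 kb apart. Cd59a (chr2:104095753-104115410) shares chromosome 2 with Marchf7 (chr2:60209936-60248385), at a distance of 43.9 Mb. Mid1 lies at chrX:169685199-169990798, near the end of the X chromosome. In laboratory mice the far end of Mid1 reaches into the region that the X and Y chromosomes share.

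RefSeq promoter sequences, which run from 250 bases before to 50 bases after a start listed for a gene, were found for 7 of the 9 genes, and not used here for Entpd4 and Zfp369. The Zfp976 and Zfp936 promoters are shown because both genes had lower signals in the Ala arrays in every region, and their sequences are alike. Aligned, they share 257 identical bases of 288 (89.2%), and the capitals mark the longest run of bases that is identical in both, 70 bases long. Zfp976 is read from the minus strand of chr7:42642555-42642854 and Zfp936 from the plus strand of chr7:43177340-43177639. Both windows lie inside the spans given above for these genes, and not at the outer ends of those spans.
Zfp976: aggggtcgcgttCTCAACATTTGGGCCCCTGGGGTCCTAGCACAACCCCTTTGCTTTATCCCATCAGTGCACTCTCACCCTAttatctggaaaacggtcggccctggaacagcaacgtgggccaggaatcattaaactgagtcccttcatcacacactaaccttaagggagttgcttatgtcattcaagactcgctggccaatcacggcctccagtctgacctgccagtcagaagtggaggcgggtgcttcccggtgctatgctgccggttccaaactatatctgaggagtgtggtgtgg
Zfp936: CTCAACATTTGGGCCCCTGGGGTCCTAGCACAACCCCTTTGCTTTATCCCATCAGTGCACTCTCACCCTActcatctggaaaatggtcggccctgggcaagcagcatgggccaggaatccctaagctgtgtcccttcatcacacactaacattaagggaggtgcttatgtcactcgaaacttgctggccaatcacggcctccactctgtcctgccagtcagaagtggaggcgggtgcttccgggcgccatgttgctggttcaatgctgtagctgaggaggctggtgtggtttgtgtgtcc
The likeness extends to neighbours on chromosome 7. The promoters of EU599041 and Zfp975 share 88.7% and 90.8% of aligned bases with that of Zfp976. Zfp977 and Gm17768, 2 further genes of that chromosome with promoters like that of Zfp976, had no value on this array. Whether probes for one of these genes also bind transcripts of another was not tested.

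The promoters of Mid1 and Cd59a, the members with the largest negative and the largest positive average difference, are shown next, both from the plus strand. The capitals in Mid1 (chrX:169684949-169685248) mark AGGTCA, the half-site that thyroid hormone receptors and other nuclear receptors bind, searched on both strands as the only motif. This window held 2 matches, 1 on each strand, that of Zfp976 held 1, and the other 5 windows held none, among them that of Cd59a (chr2:104095551-104095850). The table lists 3 windows for Mid1 and 2 for Kctd18, of which the outermost is described here, and the 2 further windows of Mid1 and the further one of Kctd18 held no match. The motif occurs in 16.3% of the 32851 promoters of the same length in the table.
Mid1: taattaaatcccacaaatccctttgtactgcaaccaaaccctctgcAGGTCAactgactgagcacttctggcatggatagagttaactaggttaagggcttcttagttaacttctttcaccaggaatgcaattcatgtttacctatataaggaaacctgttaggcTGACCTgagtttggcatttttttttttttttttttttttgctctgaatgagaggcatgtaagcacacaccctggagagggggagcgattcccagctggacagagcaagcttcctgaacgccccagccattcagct
Cd59a: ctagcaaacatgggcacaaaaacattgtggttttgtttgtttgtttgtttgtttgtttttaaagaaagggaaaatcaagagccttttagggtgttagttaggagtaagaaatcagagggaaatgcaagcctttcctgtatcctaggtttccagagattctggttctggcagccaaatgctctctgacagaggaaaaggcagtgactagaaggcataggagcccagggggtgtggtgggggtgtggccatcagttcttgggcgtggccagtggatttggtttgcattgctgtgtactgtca
The number of CG dinucleotides was 49 in the Marchf7 promoter and 29 in that of Kctd18 (12 in its further window), both above the upper quartile of 20 over all promoters. It was 10 in Zfp976, 6 in Zfp936, 2 in Mid1 (6 and 13 in its further windows), 2 in Gm15319 and 1 in Cd59a, where the median over all promoters was 7. The window of Gm15319 (chr8:20363153-20363452) was identical over all 300 bases to those of 4930467E23Rik and Gm21119 on the same chromosome, neither of which had a value on this array. It shared 96.7% of aligned bases with that of Gm7697, whose level was 0.37 ± 0.13 (SE) higher in Ala as the average log2 difference over regions, with an adjusted p of 0.849 in limma.

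Cd59a was the member with the largest positive difference, on average 1.34 ± 0.19 on the log2 scale (Ala minus Thr, SE of the limma fit), which is 2.53-fold. In the striatum its log2 signals were 11.92, 12.27, 10.92 and 12.05 in the Ala arrays, against 9.43, 10.21, 9.08 and 9.70 in the Thr arrays. The cerebellum gave 11.31, 10.79, 10.30 and 9.90 in Ala, against 9.19, 9.35, 9.29 and 9.65 in Thr. In these regions every Ala array lay above every Thr array, and the differences were 2.19 ± 0.42 and 1.21 ± 0.42. In the prefrontal cortex Cd59a measured 9.38, 9.24, 8.78 and 8.20 in Ala, against 7.01, 8.31, 6.53 and 7.69 in Thr. In the amygdala it measured 9.01, 9.30, 7.74 and 7.69 in Ala, against 6.82, 8.43, 7.34 and 7.43 in Thr. The hippocampus gave 10.10, 9.46, 7.97 and 8.09 in Ala, against 7.77, 7.84, 7.91 and 8.67 in Thr. In these other regions the groups overlapped, with differences of 1.51, 0.93 and 0.86, and in the amygdala and the hippocampus 2 Ala arrays were within the range of the Thr arrays.

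Mid1 was the member with the largest negative difference, an average of -1.35 ± 0.18, and its regional differences were close to each other, between -1.48 and -1.14. In the amygdala its log2 signals were 9.30, 9.74, 8.76 and 10.76 in Ala, against 11.16, 11.11, 11.26 and 10.88 in Thr. In the cerebellum they were 9.07, 10.65, 8.66 and 10.49 in Ala, against 10.72, 11.04, 10.80 and 10.85 in Thr. The hippocampus showed 9.43, 10.57, 9.63 and 10.79 in Ala, against 11.29, 11.42, 11.47 and 11.33 in Thr. All Ala arrays lay below all Thr arrays in these regions, and the Thr arrays were tightly grouped, with SDs of 0.16, 0.14 and 0.08 beside 0.85, 1.00 and 0.68 in Ala (n = 4). In the striatum Mid1 measured 9.40, 10.52, 9.93 and 10.59 in Ala, against 11.14, 12.17, 11.57 and 11.15 in Thr. The prefrontal cortex gave 9.10, 10.41, 10.41 and 11.14 in Ala, against 10.88, 12.39, 12.09 and 11.61 in Thr. The striatal groups did not overlap, while in the prefrontal cortex 1 Ala array exceeded the lowest Thr array. Among 14978 genes, Mid1 was the 1 gene whose groups were apart in at least 4 regions in 1 direction (0.00668%).

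Zfp976 had an average difference of -1.01 ± 0.16, from -1.33 in the striatum to -0.81 in the hippocampus, and its groups overlapped in all 5 regions. In the striatum its log2 signals were 6.61, 5.80, 7.02 and 6.14 in Ala, against 8.28, 8.36, 7.40 and 6.85 in Thr. The amygdala gave 4.07, 4.79, 5.71 and 4.45 in Ala, against 6.02, 6.33, 5.24 and 6.10 in Thr. In each of these regions 1 Ala array exceeded the lowest Thr array, and the other 3 lay below all Thr arrays. In the prefrontal cortex the values were 6.14, 6.06, 6.96 and 5.93 in Ala, against 6.78, 7.36, 7.45 and 7.18 in Thr. In the hippocampus they were 6.37, 5.73, 6.43 and 6.66 in Ala, against 7.55, 7.58, 6.22 and 7.07 in Thr. In the cerebellum they were 5.75, 5.70, 5.75 and 6.00 in Ala, against 7.43, 6.59, 5.91 and 6.53 in Thr. The level was low: the 5222 negative control rows had array medians between 5.73 and 6.35, and Zfp976 lay at or below the top of that range on 20 of 40 arrays. The plot of these 3 genes by array shows the spread within each group.

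**Figure D1:**
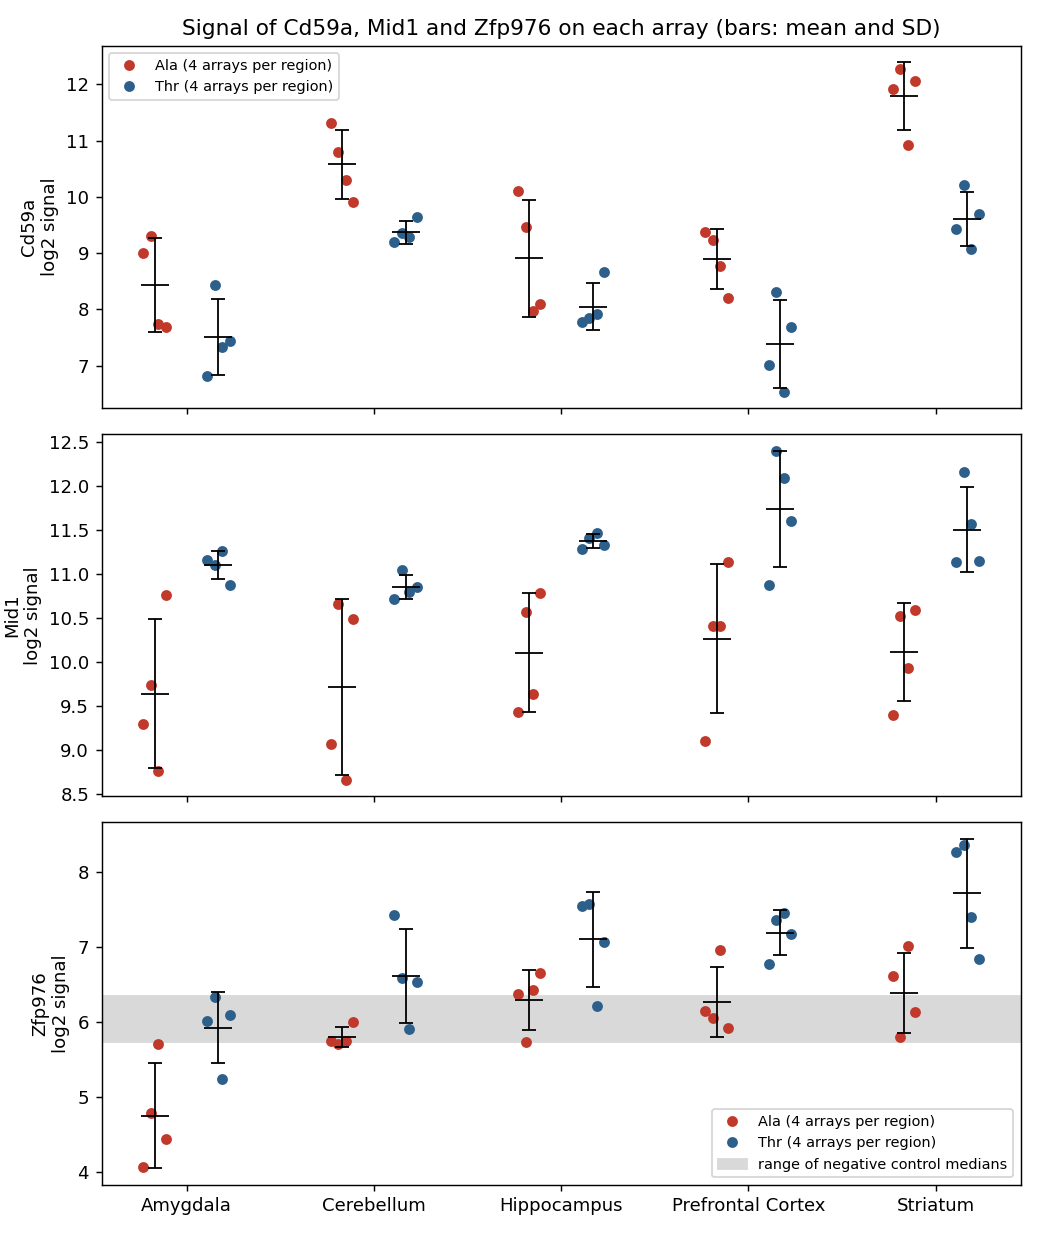
Log2 signal (vertical axes) of Cd59a, Mid1 and Zfp976 on each of 40 arrays by brain region (horizontal axis), with Ala left of Thr, bars for the mean and SD of 4 arrays, and a grey band for the negative control medians in the lowest panel. Ala and Thr points are apart in striatum and cerebellum for Cd59a and in 4 regions for Mid1, and the band from 5.73 to 6.35 covers many Ala points of Zfp976.

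Entpd4, the nucleotide-cleaving enzyme, had a high signal and an average difference of -0.77 ± 0.17, with regional values from -1.01 in the cerebellum to -0.57 in the striatum. In the cerebellum its log2 signals were 13.90, 13.76, 14.69 and 15.08 in Ala, against 15.73, 14.99, 15.46 and 15.28 in Thr. In the hippocampus they were 14.10, 14.10, 15.07 and 15.64 in Ala, against 15.72, 14.90, 15.62 and 15.51 in Thr. In each of these regions 2 Ala arrays lay below all Thr arrays by a wide gap and the other 2 were at or near the Thr level, and the groups overlapped in all 5 regions. A second row of the table for Entpd4 had an average difference of -0.72, with mean signals of 13.5 in Ala and 14.3 in Thr, and followed the first across arrays within groups (r = 0.97 over 40 arrays of shared RNA).

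Zfp936 differed by -0.56 ± 0.13 on average, and its difference varied by region, from -1.05 in the amygdala to -0.22 in the striatum. In the amygdala it measured 6.21, 6.58, 6.68 and 6.36 in Ala, against 8.33, 7.07, 7.20 and 7.40 in Thr, with no overlap. In the striatum the values were 7.91, 7.23, 8.31 and 6.59 in Ala, against 8.11, 7.23, 7.51 and 8.05 in Thr, and the Ala arrays spanned the whole Thr range. The striatal sign rested on Ala array 36: without it the difference was 0.09. With limma's array weights, which count arrays far from their group less, it was 0.03.

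The other 4 genes had higher averages in Ala by 0.37 to 0.61. Gm15319 differed by 0.61 ± 0.13, and in the hippocampus it measured 7.73, 7.57, 7.54 and 7.22 in Ala, against 6.36, 6.51, 7.11 and 6.45 in Thr. Its groups were also apart in the cerebellum and the prefrontal cortex, and at least 3 such regions in 1 direction were found in 2 of 14978 genes (0.0134%), Mid1 and Gm15319. Zfp369 differed by 0.40 ± 0.10, with regional differences from 0.33 to 0.50 and overlap in every region. Kctd18 differed by 0.39 ± 0.09. In the amygdala Kctd18 measured 6.21, 6.13, 6.19 and 6.98 in Ala, against 5.62, 6.10, 6.06 and 5.87 in Thr, and in the cerebellum 5.99, 6.26, 6.03 and 6.08 in Ala, against 5.88, 5.88, 5.70 and 5.67 in Thr. These groups were narrowly apart, but Kctd18 was at or below the top of the negative control range on 34 of 40 arrays, so most of its values are close to the background of the array. Marchf7 differed by 0.37 ± 0.10, from 0.19 in the amygdala to 0.55 in the hippocampus, with overlap in every region. Its amygdala sign rested on Ala array 3, without which the difference was -0.01.

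Across the 9 genes, 5 were higher and 4 lower in Ala, and the share of all tested genes with one sign was 4.71% higher and 3.27% lower. Groups without overlap in at least 1 region were seen in 5 of the 9 genes, where the share over all genes was 11.3%, and in at least 2 regions in 4 of the 9, where it was 0.274%. By region, the share of all genes without overlap was 3.19% in amygdala, 2.66% in cerebellum, 2.73% in hippocampus, 1.66% in prefrontal cortex and 1.98% in striatum. Since the genes were chosen by this contrast, these counts and the shares given above for Mid1 and Gm15319 describe them only. Genes of nearby rank by p that are not among the 9 were Ddit3 (-0.36 ± 0.09), Apob (-0.36 ± 0.09), Gm14434 (-0.31 ± 0.08), Scg2 (-0.38 ± 0.10) and Khdrbs2 (0.59 ± 0.15), at places 8 to 11 and 14. They also had one sign in 5 regions, and their regional difference nearest 0 came to -0.02 for Scg2 and 0.03 for Khdrbs2. Among genes with both signs, Alb, Gpx3 and Sstr4 had the smallest p, and Alb ran from -4.47 to 0.48. The regional differences of the 9 genes are set side by side in the plot by region.

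**Figure D2:**
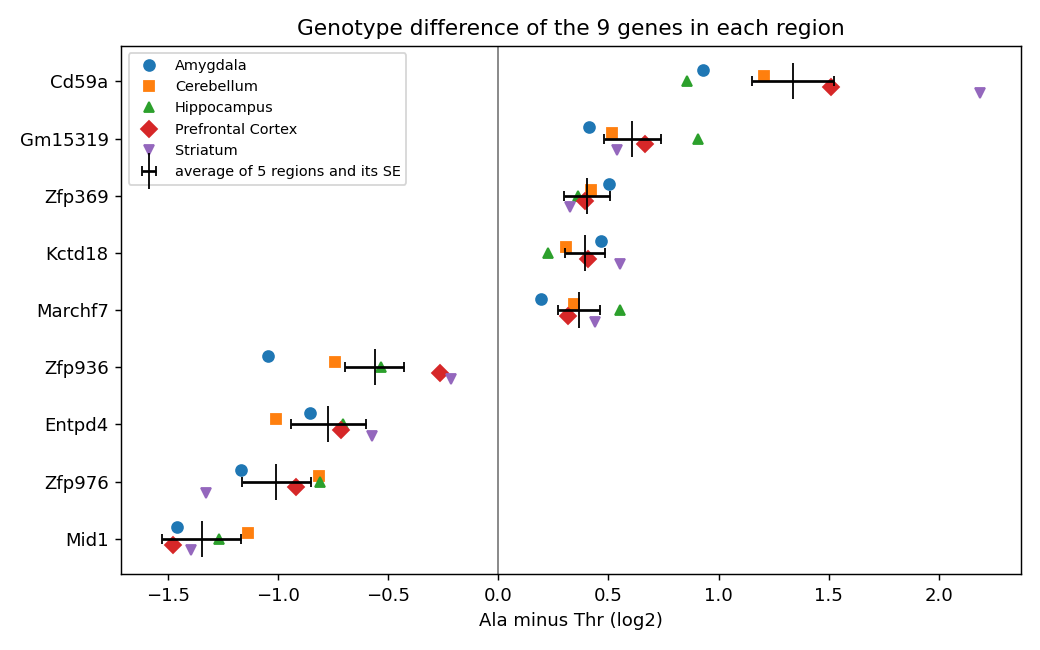
Ala minus Thr in log2 units (horizontal axis) for each of the 9 genes (rows), with 1 symbol per brain region and a black bar for the average over 5 regions with its SE. Symbols of a gene are on one side of 0 by the way the genes were chosen; Cd59a spreads from 0.86 to 2.19, Mid1 stays between -1.48 and -1.14, and Zfp936 comes within 0.22 of 0.

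The levels of the genes between brain regions were not used in choosing them and were tested in the same limma fit, averaged over the genotypes. Over the 5 regions, 6 of the 9 genes passed the moderated F-test, where 68.8% of all tested genes did, so the share among the 9 was near that background. Cd59a was lowest in the amygdala and highest in the striatum, with 7.97 ± 0.86 in the amygdala, 8.14 ± 1.02 in the prefrontal cortex, 8.48 ± 0.87 in the hippocampus, 9.97 ± 0.77 in the cerebellum and 10.70 ± 1.27 in the striatum (log2 signal, SD, n = 8). All 7 pairs of regions that involve cerebellum or striatum passed. Cerebellum minus striatum was -0.73 ± 0.30 (SE, adjusted p = 0.0361 in limma), while the amygdala, the prefrontal cortex and the hippocampus did not differ beyond their spread (adjusted p from 0.297 to 0.787). By genotype, the means in cerebellum and striatum were 10.58 and 11.79 in Ala, and 9.37 and 9.61 in Thr. The gap between these regions was thus wider in the Ala arrays. The share of all genes that passed was 54% for cerebellum minus striatum, 53.2% for amygdala minus cerebellum, 37.4% for amygdala minus striatum, 50% for cerebellum minus hippocampus, 50.1% for cerebellum minus prefrontal cortex, 34.8% for hippocampus minus striatum and 33.9% for prefrontal cortex minus striatum.

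Zfp976 was also lowest in the amygdala and highest in the striatum, with 5.34 ± 0.84 and 7.06 ± 0.92, a difference of -1.72 ± 0.25 for amygdala minus striatum (adjusted p = 2.22e-07 in limma). All 4 differences of the amygdala from another region passed, among them those from the hippocampus (-1.36 ± 0.25, beside a share of 16.2% of all genes) and the prefrontal cortex (-1.39 ± 0.25, beside 15.5%). Cerebellum, at 6.21 ± 0.60, did not differ from the hippocampus at 6.70 ± 0.65 or the prefrontal cortex at 6.73 ± 0.61 beyond the spread (adjusted p = 0.0937 and 0.0735). Zfp936 had its highest means in striatum and cerebellum, at 7.62 ± 0.58 and 7.56 ± 0.60, and its lowest in the amygdala at 6.98 ± 0.69. Amygdala minus striatum was -0.64 ± 0.21 and amygdala minus cerebellum -0.58 ± 0.21 (adjusted p = 0.0152 and 0.0201).

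Gm15319 stood out in the prefrontal cortex, at 8.15 ± 0.55, where all 4 differences from other regions passed (adjusted p from 1.34e-05 to 0.0207 in limma). For hippocampus minus prefrontal cortex it was -1.09 ± 0.20, a pair in which 19.5% of all genes passed. Its lowest means were 6.90 ± 0.54 in the amygdala and 7.06 ± 0.55 in the hippocampus, which did not differ beyond their spread. Marchf7, unlike Cd59a, had its lowest mean in the striatum, at 11.44 ± 0.36, and its highest in the cerebellum, at 12.30 ± 0.38, with a cerebellum minus striatum difference of 0.87 ± 0.15 (adjusted p = 4.78e-06). Zfp369 had the same ends, 9.67 ± 0.33 in the striatum and 10.21 ± 0.42 in the cerebellum, with a difference of 0.53 ± 0.16 (adjusted p = 0.00557). Of the 90 comparisons of a gene between a pair of regions, 27 passed, where the share over all genes and pairs was 36.5%.

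Mid1, Entpd4 and Kctd18 did not pass the F-test over regions (adjusted p = 0.102, 0.356 and 0.462 in limma). Mid1 ranged from 10.29 ± 0.90 in the cerebellum to 11.01 ± 1.06 in the prefrontal cortex, the 1 pair that passed for it (-0.72 ± 0.28, adjusted p = 0.032). Entpd4 ranged from 14.86 to 15.40 and Kctd18 from 5.93 to 6.15. The calls of Zfp936 and Zfp369, at adjusted p of 0.0339 and 0.0331, and the missed call of Mid1 each turned on single arrays. Zfp936 lost its call without any 1 of the Ala arrays 1, 4, 11, 33 and 35 or the Thr arrays 6, 7, 8, 13, 37 and 40 (highest adjusted p 0.07). Zfp369 lost its call without any 1 of the Ala arrays 9, 10, 35 and 36 or the Thr arrays 14, 37 and 40 (highest 0.0774), and Mid1 gained one without Ala array 4, Ala array 10, Ala array 25 or Thr array 29 (lowest 0.0229). The plot of regional levels shows all 9 genes.

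**Figure D3:**
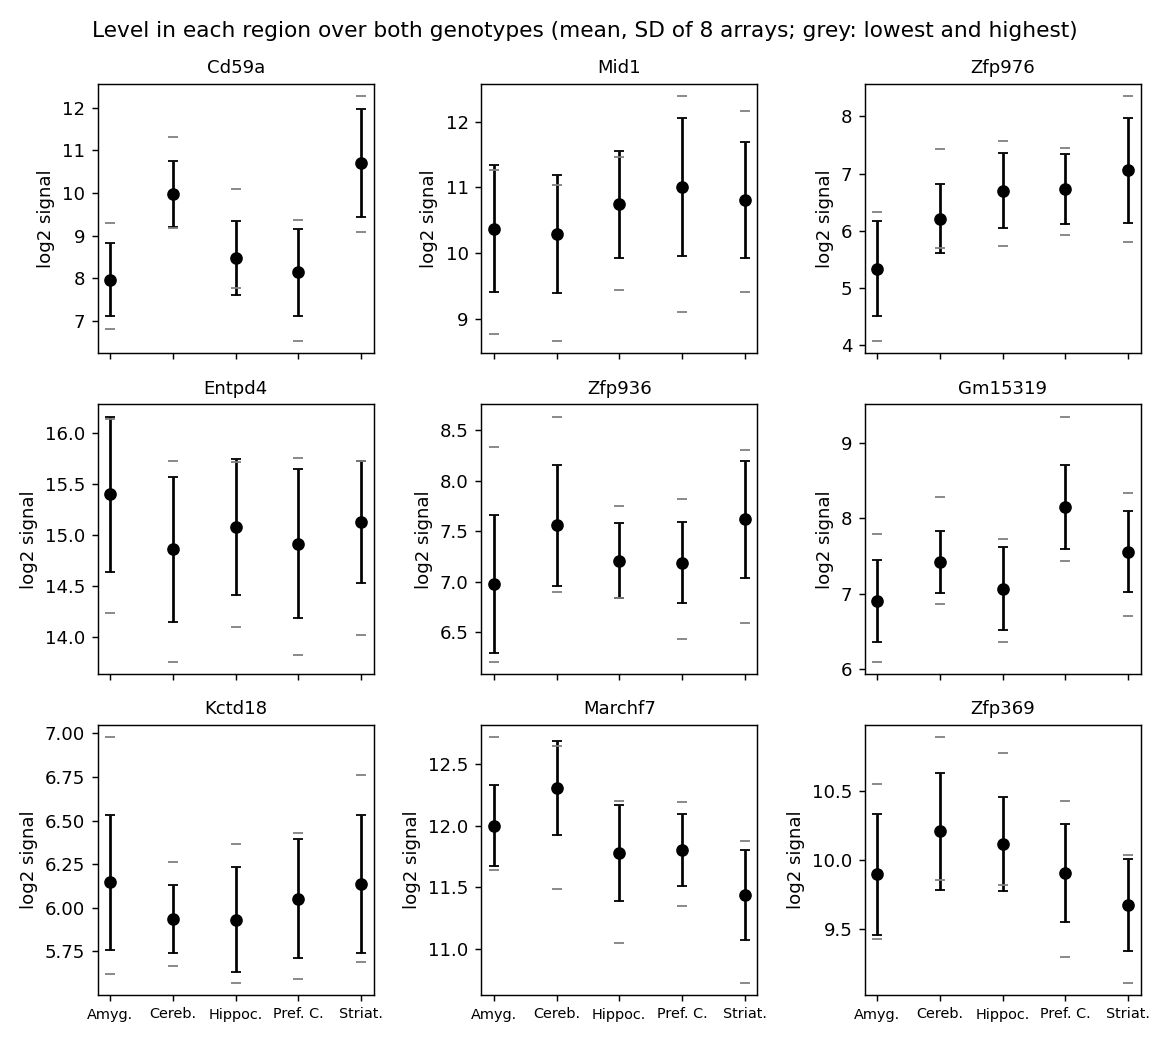
Mean log2 signal (vertical axes, each with its own range) of the 9 genes in 5 brain regions (horizontal axis) over both genotypes, with SD bars of 8 arrays and grey ticks at the lowest and highest array. Cd59a and Zfp976 are highest in the striatum, Marchf7 and Zfp369 are highest in the cerebellum and lowest in the striatum, and Gm15319 is highest in the prefrontal cortex.

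Within a genotype, some of the genes ordered the arrays of different regions alike. The labels number the arrays of each group in a run of 4, without saying what the numbers mean, and the place of an array in that run was compared across regions after the data were seen. For Entpd4, the arrays in places 3 and 4 of the Ala runs were the 2 highest in all 5 regions. Over regions its Ala place means were 14.02, 14.15, 15.04 and 15.56, against Thr place means of 15.51, 15.02, 15.73 and 15.60. The Ala means of places 1 and 2 thus lay below every Thr place mean, and those of places 3 and 4 were within the Thr range. For Mid1 the places 2 and 4 were highest, but in the prefrontal cortex place 2 was level with place 3, at 10.412 to the digits given. For Zfp369 the places 1 and 2 were highest in all 5 regions. The same 2 places were highest in all 5 regions in 0.588% of all genes in the Ala arrays and in 0.501% in the Thr arrays. Cd59a had the same 2 places on top in 4 of 5 regions in Ala (places 1 and 2) and in Thr (places 2 and 4), which held for 5.05% of all genes in Ala and 4.19% in Thr.

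For Mid1 the place means were 9.26, 10.38, 9.48 and 10.75 in Ala, against 11.04, 11.63, 11.44 and 11.16 in Thr. For Cd59a they were 10.34, 10.21, 9.14 and 9.19 in Ala, against 8.05, 8.83, 8.03 and 8.63 in Thr. For both genes all 4 Ala means were on one side of all 4 Thr means. The same held for 7 of the 9 genes, while Entpd4 and Zfp369 overlapped, and the share of all genes without overlap was 2.27%. Place means hold the genotype contrast by which the 9 genes were chosen, so this count describes them only. Zfp369 had Ala place means from 9.80 to 10.49 and Thr place means from 9.60 to 9.95. Whether arrays with one place come from one mouse is not given in the labels and was not tested with any record of animals. The plot by label order shows these 4 genes.

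**Figure D4:**
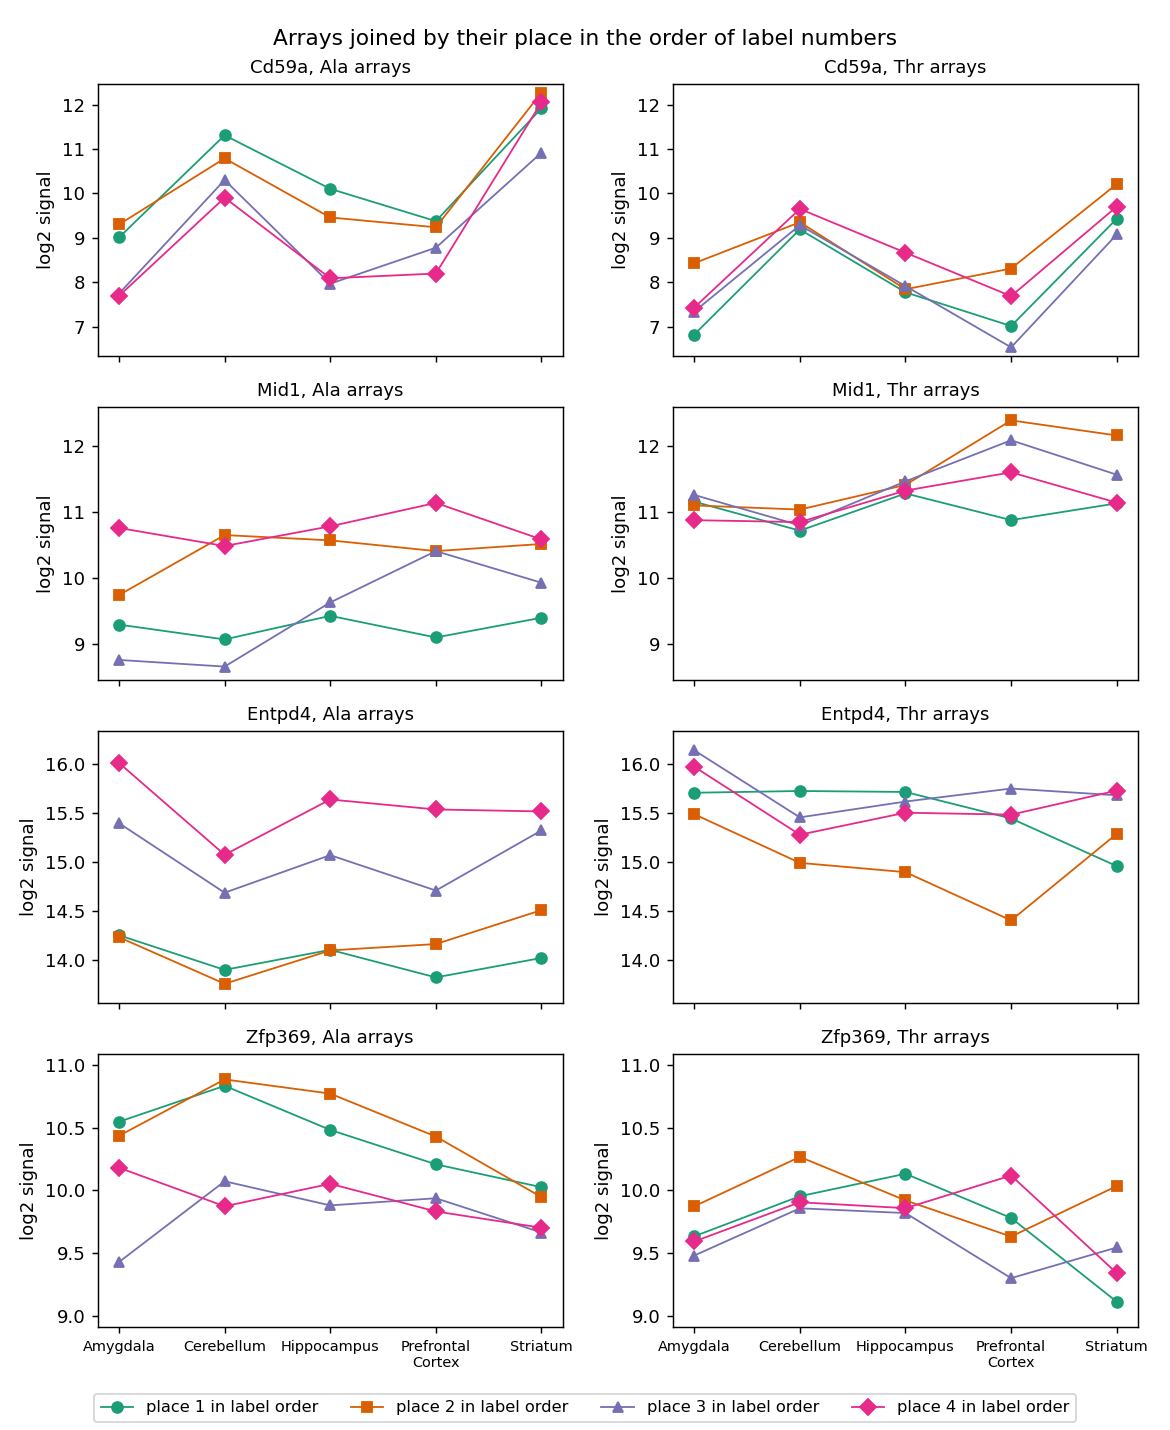
Log2 signal (vertical axes) of Cd59a, Mid1, Entpd4 and Zfp369 by brain region (horizontal axis), with Ala arrays in the left column and Thr arrays in the right, and a line for each place, 1 to 4, in the order of label numbers. The Ala lines of Entpd4 and Zfp369 run in separate upper and lower pairs in all 5 regions.

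The same order shows in how the genes varied together within groups. After the mean of each group was subtracted, Pearson's r over the 40 arrays was 0.65 between Cd59a and Zfp369, -0.73 between Cd59a and Entpd4 and -0.59 between Entpd4 and Zfp369. These were the 3 of 36 pairs with r of at least 0.5 in size, and the median over pairs was 0.01. The points share the structure of regions and label order, so the correlations are descriptions. The gene most like Cd59a was Cd59b, its close relative 26.0 kb away, with r = 0.78 after region means were subtracted and 0.73 after group means were. Cd59b differed by 0.46 ± 0.14 on average, with positive values in all 5 regions and 7.20 ± 0.89 in Ala beside 6.74 ± 0.83 in Thr (SD, n = 20), and did not pass in limma (adjusted p = 0.657). Whether probes for Cd59a also bind transcripts of Cd59b, or the reverse, was not tested, so their signals may not be separate measurements. Next in likeness to Cd59a were Zfp369 (r = 0.73) and Lbp, which binds bacterial lipopolysaccharide (0.64), and at the other end Entpd4 (-0.78), Zfp976 (-0.64) and Mid1 (-0.62). Values with region means subtracted still hold the genotype difference that chose these genes, and with group means subtracted the last 3 were -0.73, -0.17 and -0.11. With group means subtracted, Prdm16 (0.70) and Caprin1 (0.70) followed Cd59b. Prdm16 had a mean signal of 4.46, below the negative control range, and Caprin1 lies 0.333 Mb from Cd59a.

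For Mid1, the genes most like it over arrays after region means were subtracted were Entpd4 (0.59), Pkig (0.55) and Ide (0.54), which encodes a protease that degrades insulin. The least like were Cd59a (-0.62), Psd3 (-0.56) and Igfbp4 (-0.53). With group means subtracted, r with Mid1 was 0.28 for Entpd4 and -0.11 for Cd59a. For Zfp976 the most like were Dusp11 (0.60), Zfp825 (0.57) and Ccdc42 (0.57), and the least like Cd59a (-0.64, as above), Car7 (-0.62) and Ubald1 (-0.61). With group means subtracted, Ide (0.64), Cdc14a (0.60) and Cttn (0.58) led for Mid1, and Pnrc2 (0.67), Ccdc15 (0.65) and Olfr137 (0.58) for Zfp976. Ccdc42 and Olfr137 had mean signals of 3.74 and 4.14, below the negative control range.

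The genes beside the 9 on the chromosomes were not chosen by the sign and were tested. Of 153 tested neighbours that are not among the 9, up to 10 on each side, 0 passed in limma for the average genotype difference, where 3 of 14978 genes (0.02%) passed. Those 3 were Cd59a, Mid1 and Zfp976, which were chosen by this contrast, so no gene outside the 9 passed. At an unadjusted p under 0.05 there were 11 neighbours, or 7.19%, where the share over all genes was 5.37%. The median difference of the neighbours was 0.02 beside 0.01 over all genes. Cd59b had the smallest p of all neighbours. Near Zfp976 and Zfp936 the smallest p was that of EU599041, at -0.32 ± 0.13 (adjusted p = 0.864 in limma), and Zfp975 differed by -0.28 ± 0.14 (adjusted p = 0.923). Both averages had the sign of the pair without passing. By region their signs were mixed, with EU599041 at 0.11 in the hippocampus and 0.09 in the prefrontal cortex, and Zfp975 at 0.09 in the hippocampus. Their other regional differences were negative. Near the other genes the smallest p belonged to Tlr7 (0.19, beside Mid1), Pdlim2 (0.18, beside Entpd4), Defb33 (-0.20, beside Gm15319), Fam126b (-0.19, beside Kctd18), Upp2 (-0.21, beside Marchf7) and Zfp759 (0.35, beside Zfp369). Defb33 had a mean signal of 5.59, below the negative control range. The plot of Zfp976 and its neighbours shows the pair below the genes around it.

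**Figure D5:**
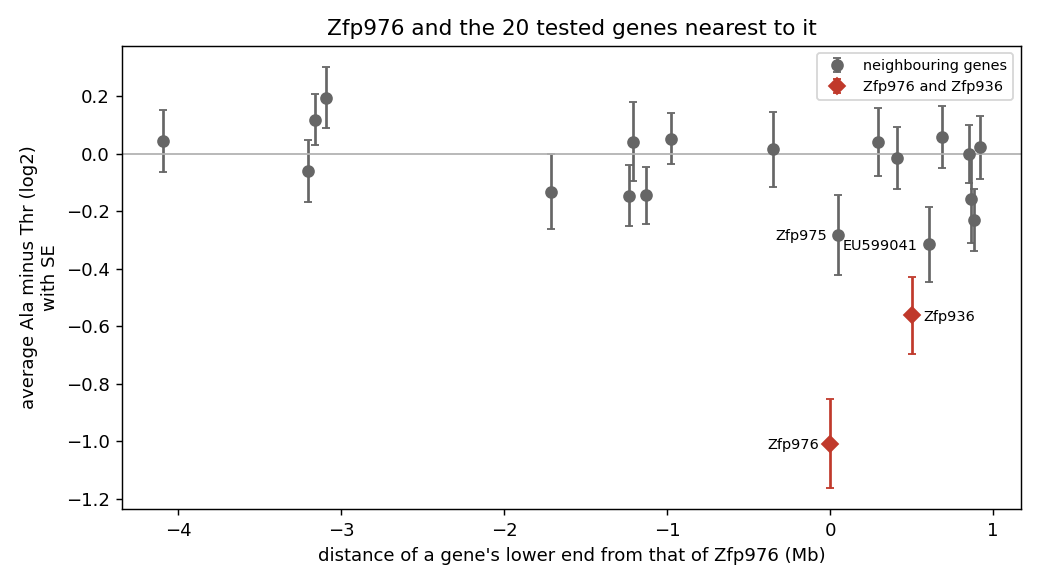
Average Ala minus Thr over 5 regions in log2 units with its SE (vertical axis) for Zfp976, Zfp936 and the genes nearest to Zfp976, by the distance of a gene's lower end from that of Zfp976 in Mb (horizontal axis). Zfp976 and Zfp936 lie at -1.01 and -0.56, EU599041 and Zfp975 at -0.32 and -0.28, and the other neighbours nearer to 0.

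Relatives and partners of the 9 genes did not pass in limma. Over all tested genes 0.02% passed, 5.37% had an unadjusted p under 0.05 and 52.8% had positive differences. The genes that passed were all among the 9, so a short list with 0 that passed is not set apart from other genes. Of 21 tested complement genes other than Cd59a, 0 passed and 3 had an unadjusted p under 0.05, with 12 positive and 9 negative differences. Cd46, known in humans as a complement inhibitor on cell surfaces, differed by 0.33 ± 0.09 (adjusted p = 0.585), and Cd59b is given above. Of 16 genes around MID1 and the TRIM ligases, 0 passed, 1 had an unadjusted p under 0.05 and 8 were positive, with Ube2d3, a ubiquitin-conjugating enzyme, at 0.18 ± 0.08 and Ube2d1 at -0.10 ± 0.07. Of 16 corepressor genes that act with zinc finger proteins, 0 passed, 0 had an unadjusted p under 0.05 and 11 were positive, with Atf7ip at 0.18 ± 0.09 and Cbx5, a heterochromatin protein, at 0.15 ± 0.08. The 8 other nucleotidases of the Entpd family (Entpd5 at -0.16 ± 0.10, Entpd3 at 0.10 ± 0.10), the 17 other Kctd genes (Kctd20 at -0.17 ± 0.09, Kctd16 at 0.21 ± 0.13) and the 10 other Marchf genes (Marchf1 at 0.24 ± 0.13, Marchf9 at 0.18 ± 0.11) also held none that passed, and none with an unadjusted p under 0.05. List medians lay between -0.02 and 0.05. Entpd3 and Marchf9 had mean signals of 4.88 and 5.44, below the negative control range. Dio2 itself measured 9.03 ± 0.68 in Ala and 9.00 ± 0.68 in Thr (SD, n = 20), a difference of 0.03 ± 0.10 (SE).

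Markers of cell types and tissues were read beside these values and the same shares over all genes (52.8% positive, 5.37% with an unadjusted p under 0.05). Marker lists of 4 regions were higher in all arrays of their own region than in all others, and the prefrontal cortex list overlapped. The Y-linked genes Eif2s3y, Uty and Kdm5d were above 7.0 on all 40 arrays, with average genotype differences of 0.02, 0.14 and -0.02. In the sex-linked list 0 of 7 tested genes passed and 1 had an unadjusted p under 0.05, and the smallest p were those of Ddx3x at 0.16 ± 0.05 and Eif2s3x at 0.10 ± 0.06. All 14 tested choroid plexus markers were on the positive side (median difference 0.25), with 0 that passed and 0 at an unadjusted p under 0.05 (Folr1 at 0.62 ± 0.35, Steap1 at 0.37 ± 0.22). Steap1 had a mean signal of 5.11, below the negative control range. The mean of the choroid plexus list in the striatum was 7.05 to 9.79 in Ala, against 5.81 to 6.58 in Thr. Its striatal difference was 1.91, beside 2.19 for Cd59a. In the cerebellum the list mean was 5.36 to 7.94 in Ala, against 6.37 to 8.16 in Thr, a difference of -0.97 beside 1.21 for Cd59a. Within groups Cd59a followed this score with r = 0.49, and with the score as a covariate the average difference was 1.25 for Cd59a and -1.28 for Mid1. The part of choroid plexus in the differences of the 9 genes was not tested.

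Of 6 tested liver markers 5 had negative differences (Alb at -1.03 ± 0.27, Fgg at -0.39 ± 0.17), 0 passed and 3 had an unadjusted p under 0.05. Fgg had a mean signal of 3.71, below the negative control range, and Ttr is in both the liver and the choroid plexus list. The liver list mean in the striatum was 6.81 to 7.60 in Ala, against 7.37 to 9.17 in Thr. The astrocyte, oligodendrocyte, microglia, endothelial and neuron lists had medians between -0.05 and 0.09 and 0 genes that passed, and 1 gene, Siglech, had an unadjusted p under 0.05. In the astrocyte list Gja1 differed by -0.13 ± 0.06 and S100b by -0.19 ± 0.10. In the oligodendrocyte list Gjb1 differed by -0.20 ± 0.14 and Opalin by 0.21 ± 0.19. In the microglia list Siglech differed by 0.17 ± 0.07 and Csf1r by 0.14 ± 0.10. In the endothelial list Esam differed by 0.16 ± 0.08 and Slco1a4 by 0.16 ± 0.09, and in the neuron list Nefm differed by -0.15 ± 0.11 and Syt1 by 0.07 ± 0.07. Among the region markers 0 passed, and the smallest p were those of Rgs9 (0.33 ± 0.25) and Pde10a (0.20 ± 0.14) for striatum, Zic1 (-0.58 ± 0.25) and Pcp2 (0.18 ± 0.15) for cerebellum, and Wfs1 (0.26 ± 0.16) and Neurod6 (0.40 ± 0.32) for hippocampus. They were Fezf2 (0.39 ± 0.23) and Lamp5 (0.11 ± 0.18) for prefrontal cortex and Rspo2 (0.47 ± 0.20) and Cyp26b1 (-0.17 ± 0.11) for amygdala, and Zic1 and Rspo2 were the 2 with an unadjusted p under 0.05. Gjb1, Esam and Cyp26b1 had mean signals of 5.46, 5.45 and 5.18, below the negative control range. Within groups Zfp369 had r of 0.51 with the astrocyte score, 0.47 with the endothelial, 0.42 with the neuron, 0.35 with the oligodendrocyte and 0.35 with the microglia score. The part of these cell types in the differences of the 9 genes was not tested.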

How the data were processed

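RNA of 40 samples was hybridised to 1 microarray each. The deposited table holds log2 signals made by the authors with RMA, per the submitters' processing notes. RMA (background correction, normalization between arrays, summary of probes) was the step named, and its version and settings are not given in the sources used here, and array medians lay between 6.12 and 6.32. Of 28846 rows, 19572 had 1 gene symbol and 0 had several, for 19505 genes. The row with the highest mean was kept for the 55 genes with more than 1. To be tested, a gene had to exceed log2 4.60, the 30th percentile of the table, on 4 arrays or more, which 14978 did. That level is below the negative control medians of 5.73 to 6.35, so the shares over all genes include genes near background. In R 4.3.3, limma 3.58.1 (lmFit, eBayes with a trend) fitted one mean per group of region and genotype, leaving 30 residual degrees of freedom, with Benjamini-Hochberg adjustment over all genes and calls at an adjusted p under 0.05. The fit was tested on simulated data with independent arrays, which cannot show how it behaves where arrays are ordered by place. Arrays were fitted as independent and unpaired, since the labels do not give the animal behind an array. The number of arrays limits the precision. The promoter alignments used Biopython 1.88.

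The 9 genes and the lists of related genes and cell type markers were chosen with earlier results of these data known. Named beside them were Dio2, the genes most like Cd59a, Mid1 and Zfp976 (3 per measure and direction), the neighbour of each with the smallest p, the 2 genes of a list with the smallest p, and the 5 genes with the smallest p outside the 9. Alternatives changed the scaling, the low-signal filter, the choice of rows, the variance estimate and the weights of arrays, added a choroid plexus score as a covariate, or left out arrays or regions one at a time. The place of an array in the order of label numbers was examined after the data were seen.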

Additional observations from a re-analysis of the deposited data

Results flagged for a closer look

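Among 90 sets of 4 arrays (a gene, a region and a genotype), 5 held 1 array far from the other 3 by Dixon's test, which chance gives in about 1 of 20 sets. Kctd18 accounted for 2 of them: Ala amygdala array 4 measured 6.98 where the other Ala arrays lay between 6.13 and 6.21, and Thr prefrontal cortex array 29 measured 6.43 where the other Thr arrays lay between 5.59 and 5.73. Gm15319 measured 8.28 on Ala cerebellum array 10, against 7.42 to 7.56 on the other Ala arrays. Zfp976 measured 6.00 on Ala cerebellum array 12, against 5.70 to 5.75. Cd59a measured 8.67 on Thr hippocampus array 24, against 7.77 to 7.91 on the other Thr arrays, and was the only Thr array there above the lowest Ala array.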

How the results depend on the processing

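The average differences of the 9 genes kept their sign in all 60 alternatives run for each, from 1.02 to 1.60 for Cd59a, -1.66 to -1.14 for Mid1 and -1.32 to -0.80 for Zfp976. Leaving out each array in turn gave 1.26 to 1.40, -1.42 to -1.27 and -1.07 to -0.95 for them. All 9 genes had one sign in every region except with array weights, without Ala array 36 and without the arrays in place 4 (Zfp936 in striatum at 0.20 in the last), and without Ala array 3 (Marchf7 in amygdala). Over all 14978 genes, the number that passed for the average genotype difference was 3, and 3 to 4 without each array in turn. These are counts over the table and no test of the 9 genes, which were chosen by this contrast. In alternatives chosen after seeing the data it was 1 without the arrays in place 1, 3 without those in place 2 (Mup2 in the stead of Zfp976), 3 without those in place 3, 6 without those in place 4 and 0 with arrays of one place averaged over regions, 4 against 4 (495 genes at an unadjusted p under 0.05, beside 804 with all arrays). With the place as a random block it was 3. That fit used a shared correlation of same-place arrays for all genes, 0.04, and so was close to the fit without a block. It cannot account for a stronger order by place in single genes such as Entpd4. Neighbours and list genes that passed were 0 in all 60 alternatives. Of the 9 genes, 4 to 7 passed between regions. No paired analysis was possible because the groups share no array number in the labels, and the place of an array is not a pairing that the labels state. Signal near the negative controls limits Kctd18 and Zfp976.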
